A study of Homo sapiens with 2 samples.

Results

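The genes RNR1 and RNR2 of the mitochondrial genome encode the 12S and 16S ribosomal RNAs (rRNAs), and they were examined in a transcriptome-wide list of SF3B1 contacts. Their members were the distinct deposited intervals on the mitochondrial chromosome whose midpoint lay in the RefSeq span of either gene. There were 6 such intervals, 3 in each gene, of 1406 distinct intervals in all. SF3B1 belongs to the nuclear U2 snRNP, the particle of the spliceosome that recognises the branch point of introns. It was mapped by HITS-CLIP, which crosslinks RNA to bound protein in living cells with ultraviolet light, pulls the protein down with an antibody and sequences the attached RNA fragments as tags. The cells were MDA-231-LM2, a line selected for lung metastasis from the human breast cancer cells MDA-MB-231, grown in DMEM with serum, with no genotype or treatment named. Per the labels, the antibody is against endogenous SF3B1, although SNRBP2 is the target named in their extract protocol. The 2 biological replicates form 1 group with no input or control sample, and the deposited list pools them. No value below therefore has a replicate error, the depth of each library is unknown, and no comparison between conditions could be made.

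The 12S and 16S rRNAs are the RNA scaffolds of the small and the large subunit of the mitochondrial ribosome, which translates the few proteins encoded in mitochondrial DNA. They are transcribed together near the start of the long heavy-strand transcript and are cut out of it at the flanking transfer RNAs. They carry no introns, they mature inside the mitochondrion and they are among the most abundant RNAs of most cells, whereas the spliceosome is nuclear. The intervals in these genes were therefore set beside the nuclear part of the list as a gauge of how the list treats abundant RNA.

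Both rRNAs carried tall intervals, and no other gene of the mitochondrial genome held any. The height of an interval is the authors' count of tags, pooled over both libraries, at the top of the peak. The 6 intervals had heights of 78 to 195 tags with a median of 121.5, against a median of 7 and a range of 3 to 248 over the 1400 nuclear intervals. They made up 0.427% of the intervals and 4.97% of the summed heights (779 of 15680; exact Clopper-Pearson 95% interval 4.63 to 5.32, counting error only). Of the nuclear intervals, 12 (0.857%) were at least as tall as the lowest of the 6. Among the 70 nuclear intervals whose midpoint lay in no protein-coding gene span, 7 (10.0%) were. All 6 lay on the plus strand, the strand that reads as the rRNAs themselves. Each of the 6 stood in the list once, under the gene that held it.

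In RNR1, the RNA of the small subunit, the first 279 nt (29.2% of the molecule) held no interval, and the 3 intervals spread from there to near the 3′ end. RefSeq places RNR1 at positions 648 to 1601 of the mitochondrial chromosome (GRCh38.p14; the intervals are given in hg38), a length of 954 nt. The first interval, at 927 to 998, covered nucleotides 280 to 351 of the 12S rRNA and reached 90 tags (exact Poisson 95% interval 72.4 to 111). The second, at 1356 to 1430, covered nucleotides 709 to 783 and reached 78 tags (61.7 to 97.3). The third, at 1526 to 1569, covered nucleotides 879 to 922, ended 32 nt before the 3′ end and reached 113 tags (93.1 to 136). The counting intervals of neighbours in the order of height overlapped, and those of the highest and the lowest did so as well, by a small margin. These intervals cover counting error only, and each height is a maximum over positions, so the true uncertainty is larger. The 3 intervals covered 191 nt, 20.0% of the 12S rRNA.

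In RNR2, the RNA of the large subunit, the first 721 nt (46.2% of the molecule) held no interval. Of the 3 intervals, the first and the second lay near the middle and the third towards the 3′ end. RefSeq places RNR2 at positions 1671 to 3229, a length of 1559 nt. The tallest interval of the mitochondrial genome, at 2392 to 2451, covered nucleotides 722 to 781 of the 16S rRNA and reached 195 tags (exact Poisson 95% interval 169 to 224). After a gap of 50 nt, the next, at 2502 to 2553, covered nucleotides 832 to 883 and reached 173 tags (148 to 201). The third, at 2974 to 3103, covered nucleotides 1304 to 1433, ended 126 nt before the 3′ end and reached 130 tags (109 to 154). The counting intervals of neighbours in the order of height overlapped, while those of the highest and the lowest did not. The 3 intervals covered 242 nt, 15.5% of the 16S rRNA.

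**Figure D1:**
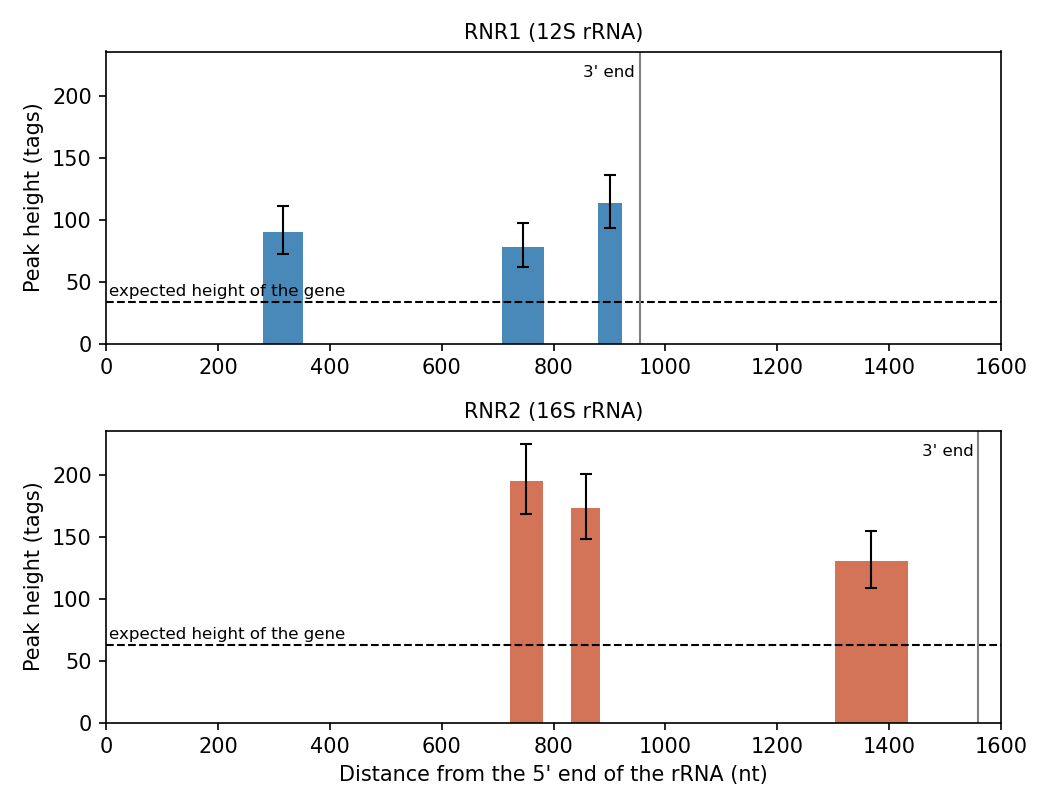
Peak height in pooled tags (vertical axis) along the 12S rRNA (upper panel) and the 16S rRNA (lower panel), with distance from the 5′ end of each rRNA in nt on the horizontal axis. Each bar spans 1 deposited interval, and error bars are exact Poisson 95% intervals for counting error. The dashed line is the expected height the list gives for the gene (33.14 for RNR1 and 62.41 for RNR2). The grey line is the 3′ end. Every bar rises above the dashed line, and the first 279 nt of RNR1 and the first 721 nt of RNR2 hold no bar.

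The higher intervals of RNR2 went with a higher expected height. The deposited text field gives an expected height for each listed gene, and the sources used here do not say how it was computed. It was 33.14 tags for RNR1 and 62.41 for RNR2, 1.88 times as high. The median height was 90 tags in RNR1 and 173 in RNR2, a ratio of 1.92, and the lowest interval of RNR2 (130) was above the highest of RNR1 (113). Once each height was divided by the expected height, the 2 genes interleaved. In RNR1 the ratios, from the 5′ end, were 2.72, 2.35 and 3.41. In RNR2 they were 3.12, 2.77 and 2.08. With the expected height taken as fixed, the counting intervals were 2.81 to 4.10 for the highest ratio, in the last interval of RNR1, and 1.74 to 2.47 for the lowest, in the last interval of RNR2. These did not overlap. Both lay at the 3′ side of their rRNA, so height over expected height did not follow a common order along the 2 molecules.

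Relative to the expected height, the rRNA intervals were among the lowest of the list. Their median ratio was 2.74, against 167 over the 1333 nuclear intervals with an expected height above 0. The other 67 nuclear intervals are listed with an expected height of 0, and their ratio is undefined. Only 4 nuclear intervals (0.300%) had a ratio at or below the highest of the rRNA intervals, 3.41. They were in VTRNA1-2, RMRP, RNU11 and RNU6ATAC, and made up 7.02% of the 57 intervals with a ratio that lay in no protein-coding gene span. Where an interval stood in several rows, the highest expected height was kept. With the lowest kept instead, 3 of 1323 nuclear intervals (0.227%) had a ratio that low, so the set of 4 depends on this choice. Of the 1333, 1269 were listed under a protein-coding gene, whether or not its span held them. Among these, 0 had a ratio that low, and the lowest was 6.56, in CCN1, a secreted matrix protein, with 17 tags against 2.59 expected. Expected heights of RNR1 and RNR2 were exceeded by those of 2 and 1 of the 1118 nuclear genes listed, whose median was 0.04 tags. Listed expected heights are rounded to 0.01, so the ratios of low nuclear genes are coarse.

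The lowest ratio listed fell from each class of expected height to the next higher one, so the low ratios of the rRNAs have to be read within their class. Among the 972 nuclear intervals with an expected height above 0 and up to 0.1, ratios ran from 60.0 to 8300 and the lowest height was 4 tags. The lowest ratio was 18.75 for the 270 intervals above 0.1 and up to 0.5, and 12.9 for the 47 above that and up to 1. It was 8.28 for the 25 above 1 and up to 2, and 6.20 for the 6 above that and up to 5. The highest ratio did not fall in the same order, with 150 in the class up to 1 and 172 in the next. The 172 is of the interval in RNU2-2, which is listed with the expected height of WDR74. The highest ratio also rose from 16.3 in the class up to 5 to 21.3 in the class up to 10. Among the 8 intervals above 5 and up to 10, of MALAT1, RNU12 and RPPH1, ratios ran from 3.51 to 21.3. In the 5 intervals above 10 (0.357% of the nuclear list) ratios ran from 2.03 to 5.93 with a median of 2.76. The 6 rRNA intervals, from 2.08 to 3.41, lay inside that range. The list holds significant peaks only. If the caller tested heights against expected ones, an interval of 7 tags, the nuclear median, would not be listed at the rRNAs' expected heights. The sources used here do not state whether the caller did so.

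**Figure D2:**
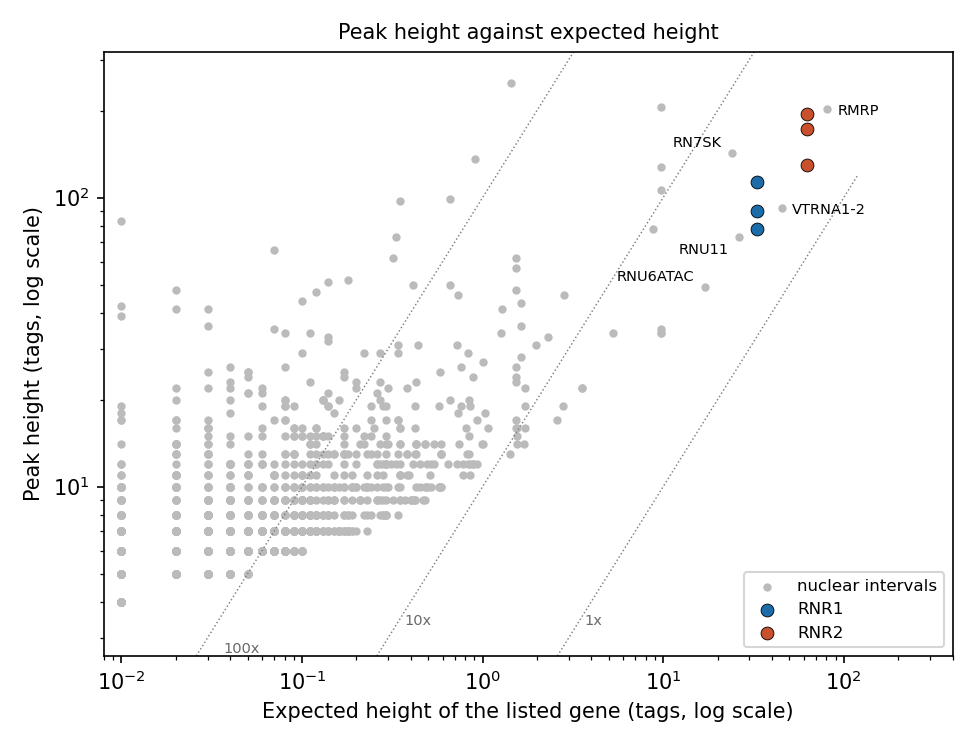
Peak height (vertical axis, tags, log scale) against the expected height of the listed gene (horizontal axis, tags, log scale) for nuclear intervals in grey and the intervals of RNR1 and RNR2 in colour; dotted lines mark heights of 1, 10 and 100 times the expected height, and the 67 nuclear intervals with an expected height of 0 are not drawn. The rRNA points lie at the upper right, between the 1-fold and 10-fold lines, beside RMRP, VTRNA1-2, RNU11, RN7SK and RNU6ATAC.

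The 5 nuclear intervals most like those of the rRNAs were all in short noncoding RNAs. Likeness was the distance from the median of the 6 rRNA intervals in log2 height and log2 height over expected height, over 1 pooled list. The nearest was VTRNA1-2, a vault RNA, with 92 tags against 45.37 expected, a ratio of 2.03 and a distance of 0.59. RNU11, the U11 RNA of the minor spliceosome, followed with 73 tags against 26.41 (ratio 2.76, distance 0.73). RMRP, the RNA of the RNase MRP, which acts in rRNA processing, had 203 tags against 81.1 (ratio 2.50, distance 0.76). RN7SK, which restrains transcription elongation, had 142 tags against 23.94 (ratio 5.93, distance 1.14). RNU6ATAC, the U6atac RNA of the minor spliceosome, had 49 tags against 17.05 (ratio 2.87, distance 1.31). The same 5 are the nuclear intervals with the highest expected heights. Expected height is height divided by the ratio, so the measure of likeness already favours such intervals, and the match is not a separate result. The counting interval of RN7SK, 5.00 to 6.99, lay above those of all 6 rRNA intervals, whose highest bound was 4.10. Those of the other 4 overlapped the range of the rRNA intervals.

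**Figure D3:**
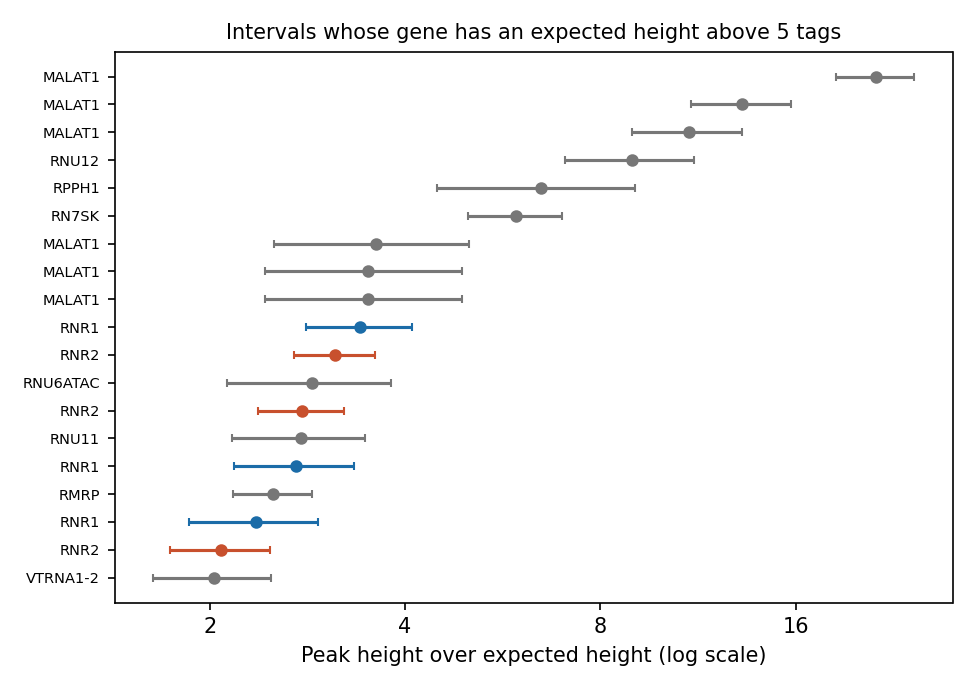
Peak height over expected height (horizontal axis, log scale) of each interval whose gene has an expected height above 5 tags, 1 line per interval and named by its listed gene, with exact Poisson 95% intervals for counting error; RNR1 is blue, RNR2 red and nuclear genes grey. The 6 rRNA intervals fill the lower end from 2.08 to 3.41 with VTRNA1-2, RMRP, RNU11 and RNU6ATAC, and RN7SK and the 3 tallest intervals of MALAT1 stand above them. The lower intervals of MALAT1, at 3.51 and 3.61, lie next to the rRNA intervals, and their error bars overlap the range of the rRNAs.

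Nuclear intervals as tall as those of the rRNAs mostly stood on a far lower expected height. Of the 12 nuclear intervals of at least 78 tags, 10 had a ratio above 3.41, and RMRP and VTRNA1-2 were the others. The tallest nuclear interval, of 248 tags, lay in RNU2-2, a U2 RNA gene, but was listed under WDR74 with 1.44 expected, a ratio of 172. The tallest interval of MALAT1, a nuclear long noncoding RNA, had 206 tags against 9.69 expected, a ratio of 21.3. Lower intervals of MALAT1, of 34 and 35 tags, had ratios of 3.51 and 3.61, close to those of the rRNAs. COL7A1, the gene of type VII collagen, had 136 tags against 0.91, a ratio of 149. The 195 tags of RNR2 were thus of the height of the tallest MALAT1 interval, while the ratio was 3.12 in RNR2. The counting interval of that MALAT1 height, 179 to 236, overlaps that of RNR2. For the RNU2-2 interval the expected height is that listed for WDR74, so its ratio is not on the same footing.

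Listed p-values of the rRNA intervals were mostly below the nuclear median but did not reach the lowest nuclear values. Their median in the deposited list was 6.43e-09, against 1.27e-05 for the nuclear intervals. The deposited list gave 5.06e-09 for both of the taller RNR2 intervals and 9.51e-07 for the third, and 7.79e-09, 1.78e-04 and 4.76e-09 for those of RNR1 from the 5′ end. None of the 6 was at 1e-100, the lowest value the list holds, which was given for 264 nuclear intervals (18.9%) and for 7 of the 12 of at least 78 tags. That value did not follow height or ratio. The COL7A1 interval, with 136 tags and a ratio of 149, was listed at 1.09e-09. A MALAT1 interval of 106 tags and a ratio of 10.9 was listed at 1e-100. Its absence from the rRNA intervals is thus not a rank of peak strength. All 6 were at or below 0.001, as were 965 nuclear intervals (68.9%).

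Intervals in the rRNAs were wide. The deposited interval ends where the peak falls to a fixed fraction of its top, per the file's name. The widths were 72, 75 and 44 nt in RNR1 and 60, 52 and 130 nt in RNR2, from the 5′ end, with a median of 66 nt. The nuclear median was 43 nt, with quartiles of 42 and 44. Of the rRNA intervals, 5 of 6 were wider than 44 nt, against 323 of 1400 nuclear ones (23.1%), and only 33 nuclear intervals (2.36%) were wider than 66 nt. The last interval of RNR2, at 130 nt, was wider than every nuclear interval, of which the widest were in RPL10 (92 nt), RNU12 (90 nt) and MALAT1 (87 nt). The tallest interval of RNR1, by contrast, had the usual width of 44 nt.

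Width did not separate with height alone. The 12 nuclear intervals of at least 78 tags were 43 to 90 nt wide with a median of 47.5 nt. The 5 nuclear intervals with an expected height above 10 were 43 to 57 nt wide with a median of 45 nt. The rRNA intervals of 60, 72, 75 and 130 nt, 4 of the 6, were wider than all of these. In the class above 5 and up to 10, the 8 nuclear intervals had a median of 56.5 nt and a maximum of 90 nt. Wide intervals were thus not particular to the rRNAs. With 6 intervals from 2 RNAs, this is a description and was not tested. RNR1 and RNR2 are also longer than the nuclear RNAs with an expected height above 10, which are 88 to 332 nt long. MALAT1, a gene of 8779 nt with an expected height of 9.69, held intervals of 45 to 87 nt. The part of length in the difference was not tested.

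**Figure D4:**
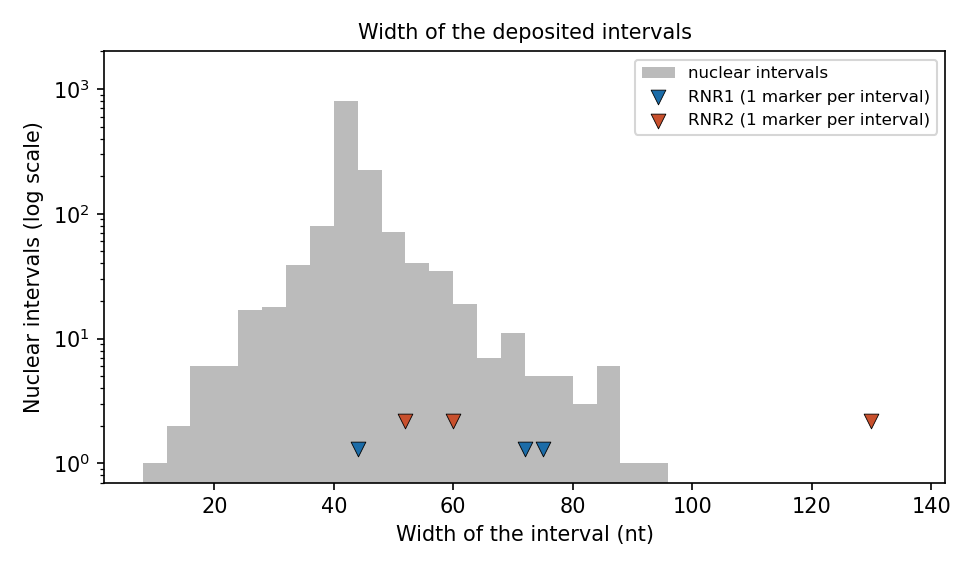
Number of nuclear intervals (vertical axis, log scale) by interval width in nt (horizontal axis, bins of 4 nt), with the widths of the RNR1 and RNR2 intervals as triangles whose vertical position has no meaning. Most nuclear intervals lie near 43 nt and none exceeds 92 nt, while the RNR2 interval of 130 nt lies beyond them.

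Other genes of mitochondrial gene expression were described by counts, beside the 5.47% of nuclear protein-coding genes that held an interval. The 13 mitochondrial mRNAs and the 22 mitochondrial transfer RNAs, most of which lie on the same heavy-strand transcript as the rRNAs, held 0 intervals. The list gives no expected height for them, so tags below the caller's threshold were not seen. The 13 nuclear MTRNR2L genes, copies of part of the 16S rRNA, also held 0. Tags shared between such copies and the mitochondrial rRNA can be lost or misplaced where only uniquely placed tags are kept, and the part of this in the positions above was not tested.

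Nuclear rRNA genes, the cytosolic counterparts, held far lower intervals than the mitochondrial rRNAs, near the nuclear median of 7 tags. Of 53 entries, 3 (5.66%) held an interval, close to the 5.47% of nuclear protein-coding genes. RNA5S9, a 5S rRNA gene, held 1 interval of 14 tags. RNA28SN2, a large-subunit rRNA gene, and the precursor gene RNA45SN2 around it held the same 1 interval, of 6 tags. Both intervals are listed under other genes, with expected heights of 0.02 and 0. Nuclear rRNA genes exist in many near-identical copies, so tags on them may not be assigned to 1 place, and low heights do not show a lack of tags. The difference between mitochondrial and cytosolic rRNA can therefore not be read as a difference in contact.

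Protein partners of the mitochondrial rRNAs were near the background. Of 77 mitochondrial ribosomal protein genes, 3 (3.90%) held an interval, MRPS25 with 13 tags, MRPL52 with 10 and MRPL46 with 4. Of 50 genes of mitochondrial RNA synthesis, processing and ribosome assembly, 4 (8%) did. They were MTG2 (10 tags) and MTG1 (8), GTPases of ribosome assembly, TFAM (6), the factor that packages mitochondrial DNA and starts its transcription, and MALSU1 (6), an assembly factor of the large subunit. Heights in these nuclear transcripts were 4 to 13 tags, with ratios of 34.5 to 400. Of 20 abundant nuclear-encoded noncoding RNAs, chosen with the heights of several of them known, 10 held an interval, with a median height of 85 tags for the tallest of each. That choice bears on both values, so neither is a background, and no share over all noncoding genes is given here. The tallest of RNR1 and RNR2 were of 113 and 195 tags.

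As a gauge of the whole list, the RNAs with an expected height above 10 were few. RNR1, RNR2 and the 5 nuclear RNAs of that class held 11 intervals and 8.53% of the summed heights, of which the rRNAs gave 779 tags and the others 559. With no control, input or transcript level, contact with SF3B1 and background from abundant RNA cannot be told apart for any of these intervals.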

How the data were processed

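Both libraries were pooled by the submitters into 1 peak list. The build was hg38, and BWA 0.7.17 and cutadapt 2.3 were run, per the submitters' processing notes. Caller, threshold and annotation of the peaks are not given in the sources used here. Peak height was deposited by the authors as a signal in tags, not normalized, beside a text field with gene number, expected height and p-value. The file's name speaks of unique tags, which could mean unique placement or removal of duplicates. Height and text field were equal in all 1587 rows. Rows of equal position and strand were counted once, with the highest expected height. Genes were named and placed by the RefSeq table of GRCh38.p14, which gives no strand; no genome sequence was used and no sequence is printed. No statistical test across intervals was run, and 95% intervals are exact Poisson or Clopper-Pearson. The parsing was tested on simulated data. The members and gene lists were chosen with earlier results of these data known. Named genes were both rRNAs, listed related genes with an interval (up to 5 per list) and the 5 nuclear intervals nearest in height and ratio or highest in expected height; WDR74, COL7A1, CCN1 and RPL10 were named after their values were seen, as were the MALAT1, RNU12 and RPPH1 intervals used as comparisons. Values were computed in Python 3.11.15 with pandas 2.3.3, numpy 2.4.6 and scipy 1.17.1, and plots were drawn with matplotlib 3.10.9.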

Additional observations from a re-analysis of the deposited data

How the results depend on the processing

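Of 42 alternative values of 7 results, 31 were counted as unchanged. These were the same or within the counting interval, except for the number of rRNA intervals under merging within 50 nt. Merging joined the 2 taller intervals of RNR2 and left 5, while the number was 6 under all other settings. With merging, the median height was 113 tags, the median ratio 2.72, the median width 72 nt and the share of summed heights 3.91%, since only the taller interval of the joined pair was kept. Geometric means in place of medians gave 123 tags and a ratio of 2.71, and the mean width was 72.2 nt. The share of summed heights was 5.96% among intervals with a p-value of at most 0.001 and 4.54% with every deposited row counted. With the lowest expected height kept for repeated rows, 0.227% of nuclear intervals (3 of 1323) had a ratio as low as the rRNAs. The likeness to the rRNA intervals was computed with the highest expected height only. Against the nuclear intervals whose midpoint lay in no protein-coding gene span, 7.02% (4 of 57) had a ratio as low as the rRNAs and 10.0% (7 of 70) were as tall as the lowest rRNA interval. No paired analysis was possible because the deposited list pools both replicates. For the same reason no replicate could be left out.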
